A study of Mus musculus with 12 samples.

Results

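The actin and tubulin cytoskeleton genes described here are 10 genes taken from a list of names: Actb, Actg1, Cfl1, Pfn1, Actn1, Actn4, Tuba1a, Tuba1b, Tuba1c and Tubb5. A gene counted as having a peak in a list when the deposited annotation gave its symbol to a peak overlapping it. By that rule 4 of the 10 had a peak in at least 1 of 6 lists of ac4C peaks, among 2095 gene symbols with a peak in all, and the other 6 (Actg1, Pfn1, Actn1, Tuba1a, Tuba1b and Tubb5) had none. The 4 genes held 16 of the 4753 peaks. ac4C, or N4-acetylcytidine, is a cytidine that carries an acetyl group and is written into RNA by the enzyme NAT10.

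Mouse peritoneal macrophages, phagocytes of the abdominal cavity, were kept in serum-supplemented medium with IFN-γ (IFN-G in the labels) for 0, 24 or 48 h. RNA bound in an ac4C pull-down and total RNA were sequenced, which gave 12 samples in 6 groups of 2. All groups carry the same IFN-γ label and none was kept for 24 or 48 h without it, so the cytokine and time in culture cannot be told apart. Strain and age are not given in the labels, nor whether each sample is an animal of its own. The p-values of tests between lists thus measure the spread between lists, which may be technical. The p and q of a single peak are the authors' values within 1 list and measure no such spread. Each time has 2 peak lists that name their hour and not their sample. They are called list 1 and list 2 of that time, and the numbers pair nothing.

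Actin filaments are built from β-actin, the product of Actb, and γ-actin, the product of Actg1, and give a macrophage the force to crawl, spread and engulf. Cofilin (Cfl1) severs and unloads old filaments, profilin (Pfn1) feeds actin monomers to growing ends, and the α-actinins (Actn1 and Actn4) tie filaments into bundles. Microtubules, the tracks of vesicle transport, are polymers of α-tubulin (Tuba1a, Tuba1b and Tuba1c) and β-tubulin (Tubb5).

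Of the 10 genes, Actb and Cfl1 had a peak in all 6 lists, and Tuba1c and Actn4 had a peak in both 0 h lists and in none of the 4 later lists. Thus 4 of the genes had a peak in each 0 h list, and 2 in each 24 h and each 48 h list. The 10 genes were chosen with earlier results of these data known, so the shares that follow are description only. A peak in any list was found for 8.14% of the 21896 protein-coding genes of a RefSeq gene table. For the 1783 protein-coding genes found in any list, 3.25% recurred in all 6 and 20.9% appeared in both lists of 0 h. Among the 372 genes in the last group, 27.2% had no peak in any later list, the pattern of Tuba1c and Actn4. The reverse pattern, a peak in 2 lists of the same later time without any at 0 h, applied to 4.37% of the 1783 genes and to none of the 10.

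The lists differed in length and depth, which touches every count above. The number of peaks was 946 and 1151 for 0 h, 646 and 725 for 24 h, and 611 and 674 for 48 h. No label names the control library of a list, which is called input here. Whole numbers of pull-down fragments and the input coverage were worked out from the fold enrichment and p of each summit, the highest point of a peak. The input depth of a list, read from the lowest input coverage in it, was 91.4% to 100% of the deepest list at 0 h, 73.7% to 80.8% at 24 h and 44.5% to 57.2% at 48 h. The pull-down depth was derived from it, as that lowest input coverage divided by the fitted factor that scales pull-down to input in the list. It was 78.0% to 91.5% of the deepest list for 0 h, 98.0% to 100% for 24 h and 68.5% to 78.0% for 48 h. The fold enrichment, p and q of a peak are the authors' values, and are used to describe and rank peaks within a list. Of 14 macrophage marker genes, 3 had a peak, among them Itgam in both 0 h lists and Lyz2 in 1 list. Among the markers of other peritoneal cells, the 5 T cell, 5 neutrophil, 4 mast cell and 4 dendritic cell genes had no peak. A peak in 1 list each was found for 1 of 6 B cell genes (Cd74) and 1 of 5 mesothelial genes (Wt1). So it was for 1 of 6 fibroblast or smooth muscle genes (Des). The Cd74 peak had a −log10 q of 0, and a peak on 1 such gene does not show that the cell type was present. A missing peak does not show that a transcript was low.

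Actb (ENSMUSG00000029580) lies on the minus strand of chromosome 5 (GRCm39, 142888870 to 142892509 in the authors' annotation). Its peak was a single region of the 3′ UTR, the untranslated end of the transcript, in every list. The widest, in 0 h list 2, was chr5:142888928-142889541, and the narrowest, in 24 h list 2, was chr5:142888987-142889349. The start of a peak can be off by 1 base, since the files do not say from where they count. The summits lay 252 to 285 bases upstream of the annotated 3′ end. They stayed within 33 bases of each other over the 6 lists, with an SD of 11.2 bases. Among the 55 regions with a peak in all 6 lists, the median range of the summits was 74 bases, and 13 regions had a tighter one than Actb.

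The Actb peak was 575 and 613 bases wide at 0 h, then 365 and 362 at 24 h, then 426 and 584 at 48 h. Both 24 h widths were below both 0 h widths, and 48 h list 2 lay between the 0 h lists. The later lists differed from the 0 h lists by a mean of -159.75 bases, which did not pass the exact permutation test (two-sided p = 0.2, Benjamini-Hochberg adjusted p = 0.749 over 2095 genes). None of the 2095 genes, 0%, passed an adjusted p of 0.05 for a trend of covered bases over the 3 times (exact Jonckheere-Terpstra test), and 19 had an unadjusted p under 0.05. The trend p cannot go below 0.022, so over 2095 genes an adjusted p of 0.05 was hardly within reach. With 2 lists against 4 the exact permutation p cannot go below 0.067, and 0 genes had an unadjusted p under 0.05 in that test.

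The Actb peak was strong by p and weak by fold. Its fold enrichment was 1.57 and 1.83 at 0 h, then 1.95 and 1.305 at 24 h, then 1.86 and 1.76 at 48 h. In 24 h list 2 that was the lowest fold of the list's 646 peaks, and in the other 5 lists it stood above only 1.39% to 6.49% of the list's other peaks. Ranked by p, however, the peak was number 5 and number 1 in the 0 h lists, 4 and 162 in the 24 h lists, and 11 and 21 in the 48 h lists. Its −log10 q was 52.6 and 92.5 at 0 h, then 34.1 and 2.39 at 24 h, then 27.5 and 15.3 at 48 h. The 24 h list 2 was thus the weakest of the 6 for Actb by fold, by p and by q.

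Few summits were covered as deeply as that of Actb. It held 3426 and 3182 pull-down fragments over an input coverage of 952 and 813 at 0 h. At 24 h it held 1693 and 1295 fragments over 255 and 327, and at 48 h 1574 and 1314 over 247 and 193. Over all summits of a list the median number of pull-down fragments was 45 to 51. Actb had the highest input coverage of any peak in 5 lists and the second highest in 24 h list 2. At such coverage a fold of 1.08 to 1.19, depending on the list, is enough to reach the lists' threshold, a p of about 0.005.

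**Figure D1:**
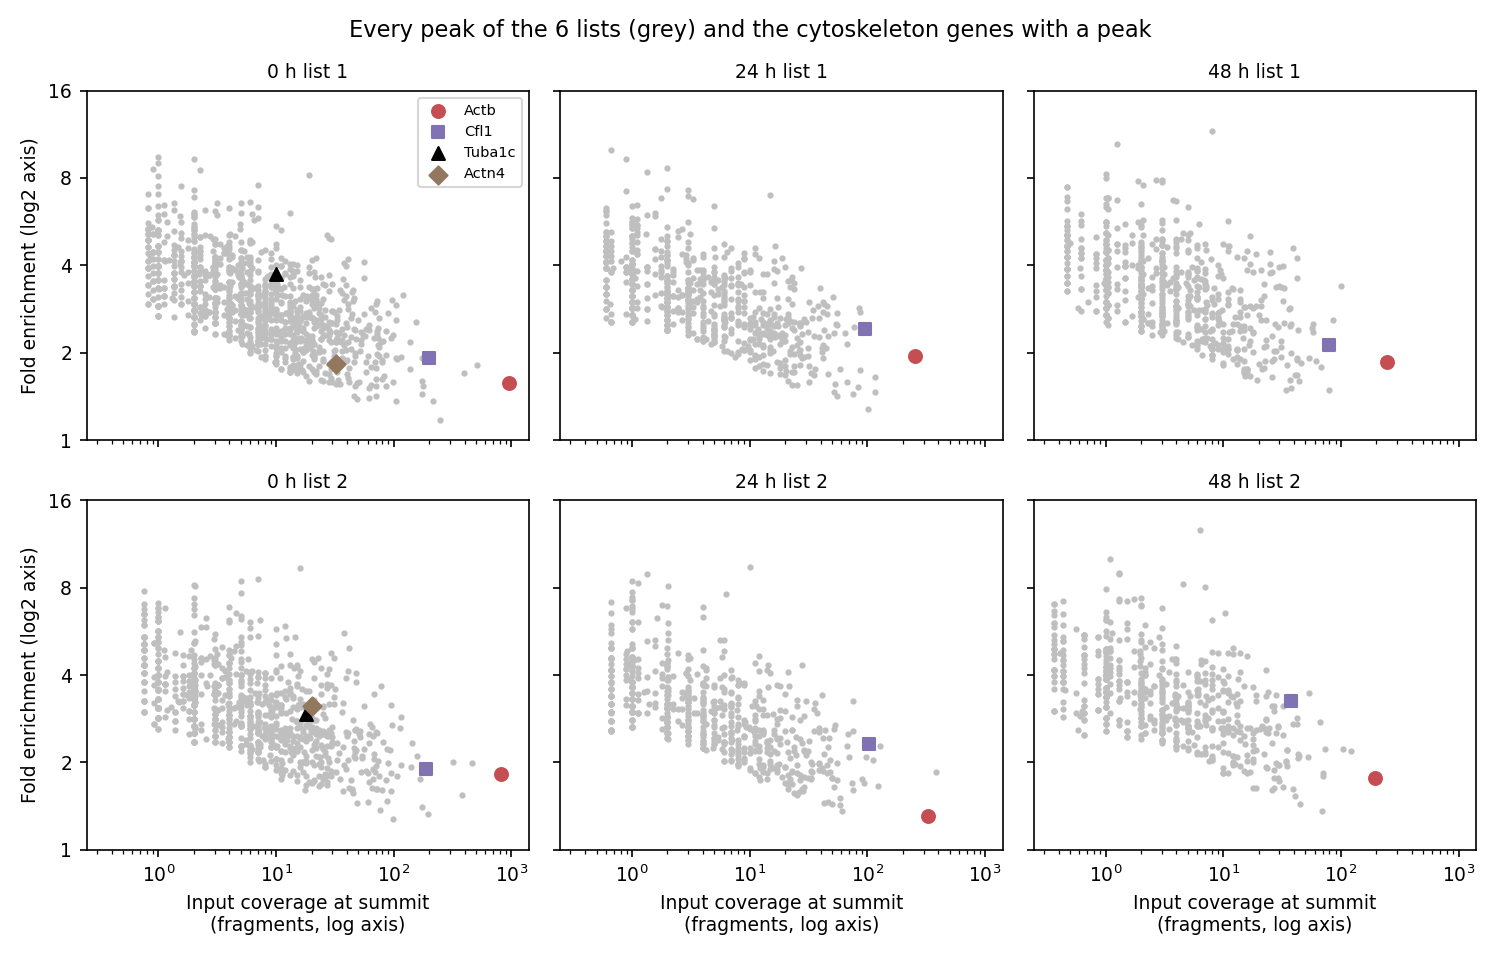
Each panel is 1 list, with columns for 0, 24 and 48 h from left to right; grey points are all peaks, with input coverage at the summit (fragments, log axis) against fold enrichment (log2 axis), and coloured symbols mark the cytoskeleton genes. Actb sits at the right edge with a fold of 1.305 to 1.95, Cfl1 to its left, and Tuba1c and Actn4 lie among the bulk of the peaks of the 0 h lists.

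Setting the depth-scaled pull-down over the input gave the enrichment of Actb with its counting error. The ratio was 1.57 (95% exact interval 1.46 to 1.69) and 1.83 (1.70 to 1.98) in the 0 h lists. It was 1.96 (1.71 to 2.24) and 1.31 (1.16 to 1.48) in the 24 h lists, and 1.87 (1.63 to 2.15) and 1.77 (1.52 to 2.07) in the 48 h lists. These Clopper-Pearson intervals cover counting error only, since reads without molecular identifiers are not independent molecules. The 2 lists of 24 h lay apart by more than their intervals, and their values enclosed those of every other list. Over the 4 later lists the mean ratio was 1.01 times that of the 0 h lists (exact permutation p = 1, two-sided).

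While the ratio did not separate the times, both of its parts did. Divided by the background coverage of each list, the input at the Actb summit was 1165 and 1089 at 0 h, then 423 and 495 at 24 h, then 528 and 531 at 48 h. The means were 1127 ± 53.8, 459 ± 50.7 and 530 ± 1.63 (SD, n = 2 lists each). All 4 later lists lay below both 0 h lists, at 0.44 times their mean, which was the lowest of the 55 regions with a peak in all 6 lists.

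The pull-down coverage of Actb did the same. It was 1832 and 1995 times the list background at 0 h, then 828 and 646 at 24 h, then 987 and 938 at 48 h, with the later lists at 0.44 times the 0 h mean, again the lowest of the 55 regions. Both comparisons gave the smallest exact permutation p that 2 lists against 4 allow (p = 0.067, two-sided, adjusted over the 55 regions p = 0.183 for input and 0.167 for pull-down). As background, both 0 h lists stood above all 4 later lists for 25.5% of the 55 regions in the input and for 23.6% in the pull-down. The median region had a later level of 1.06 times the 0 h level in the input and 1.02 times in the pull-down. The comparison of coverage was added after the data had been seen. Fewer cells of a type and less RNA per cell cannot be told apart in bulk samples, and coverage at 1 summit is not the level of a whole transcript.

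**Figure D2:**
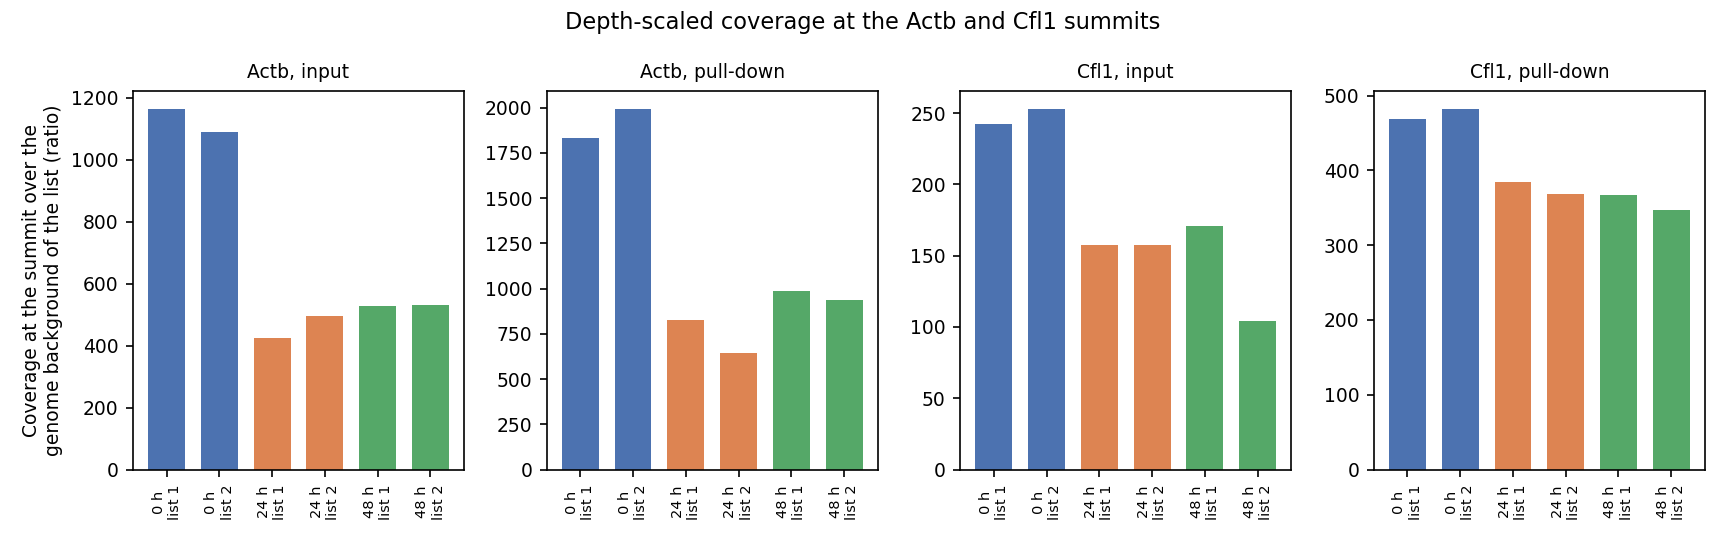
Bars give the input and the pull-down coverage at the summits of Actb and Cfl1 as a ratio to the background coverage of the same list, 1 bar per list in the order 0, 24 and 48 h, with a separate axis from 0 in each panel. In all 4 panels the 4 bars of 24 h and 48 h are below both bars of 0 h, at 0.44 times their mean for both panels of Actb, 0.60 times for the Cfl1 input and 0.77 times for the Cfl1 pull-down.

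Cfl1 (ENSMUSG00000056201) lies on the plus strand of chromosome 19 (GRCm39, 5540483 to 5545229). It also had a single 3′ UTR region in every list, for example chr19:5543691-5543933 in 0 h list 1 and chr19:5543689-5544046 in 24 h list 2. The summits lay 1381 to 1397 bases upstream of the annotated 3′ end, within 16 bases of each other, with an SD of 5.98 bases. Only 5 of the 55 regions in all 6 lists had a tighter set of summits. The peak was 235 to 253 bases wide in 5 lists and 357 in 24 h list 2. Covered bases in the later lists exceeded those at 0 h by a mean of 31.75 bases, which did not pass the exact permutation test (p = 0.6, two-sided). Without 24 h list 2 that mean was 3.67 bases.

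The fold enrichment of Cfl1 was 1.93 and 1.90 at 0 h, then 2.42 and 2.32 at 24 h, then 2.13 and 3.26 at 48 h. All 4 later values were above both 0 h values. By p the peak ranked 32 and 39 in the 0 h lists, 8 and 8 in the 24 h lists, and 46 and 8 in the 48 h lists, and its −log10 q was between 12.9 and 25.5 in the 6 lists. Cfl1 stood above at least 93.3% of the peaks of every list by p, whereas Actb stood above 75.0% in 24 h list 2 and above at least 96.7% in the others.

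The summit of Cfl1 held 876 and 770 pull-down fragments over an input coverage of 198 and 189 at 0 h. It held 785 and 737 over 95 and 104 at 24 h, and 586 and 486 over 80 and 38 at 48 h. The ratio of pull-down to input was 1.93 (95% exact interval 1.65 to 2.27) and 1.91 (1.62 to 2.25) at 0 h, and 2.43 (1.97 to 3.04) and 2.34 (1.90 to 2.90) at 24 h. At 48 h it was 2.15 (1.70 to 2.75) and 3.32 (2.38 to 4.75). The later lists averaged 1.33 times the 0 h lists, but the intervals of 0 h and of all later lists except 48 h list 2 overlapped. The exact permutation test did not separate the lists (two-sided p = 0.2, adjusted over the 55 regions p = 0.647), and without 48 h list 2 the factor was 1.20.

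Both parts of the Cfl1 ratio were lower at the later times. The input coverage over background averaged 248 ± 7.67 at 0 h, 158 ± 0.193 at 24 h and 138 ± 47.1 at 48 h (SD, n = 2 lists each), and the later lists stood at 0.60 times the 0 h mean. That was the third lowest of the 55 regions. The pull-down averaged 476 ± 10.2, 376 ± 11.3 and 357 ± 14.7 at 0, 24 and 48 h (SD, n = 2 lists each), with the later lists at 0.77 times the 0 h mean. In each case both 0 h lists were above all 4 later lists, the exact permutation p was 0.067 (two-sided), and no adjusted p passed 0.05. The input thus differed by more than the pull-down for Cfl1 and by about as much for Actb, a contrast between the genes that was not tested.

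**Figure D3:**
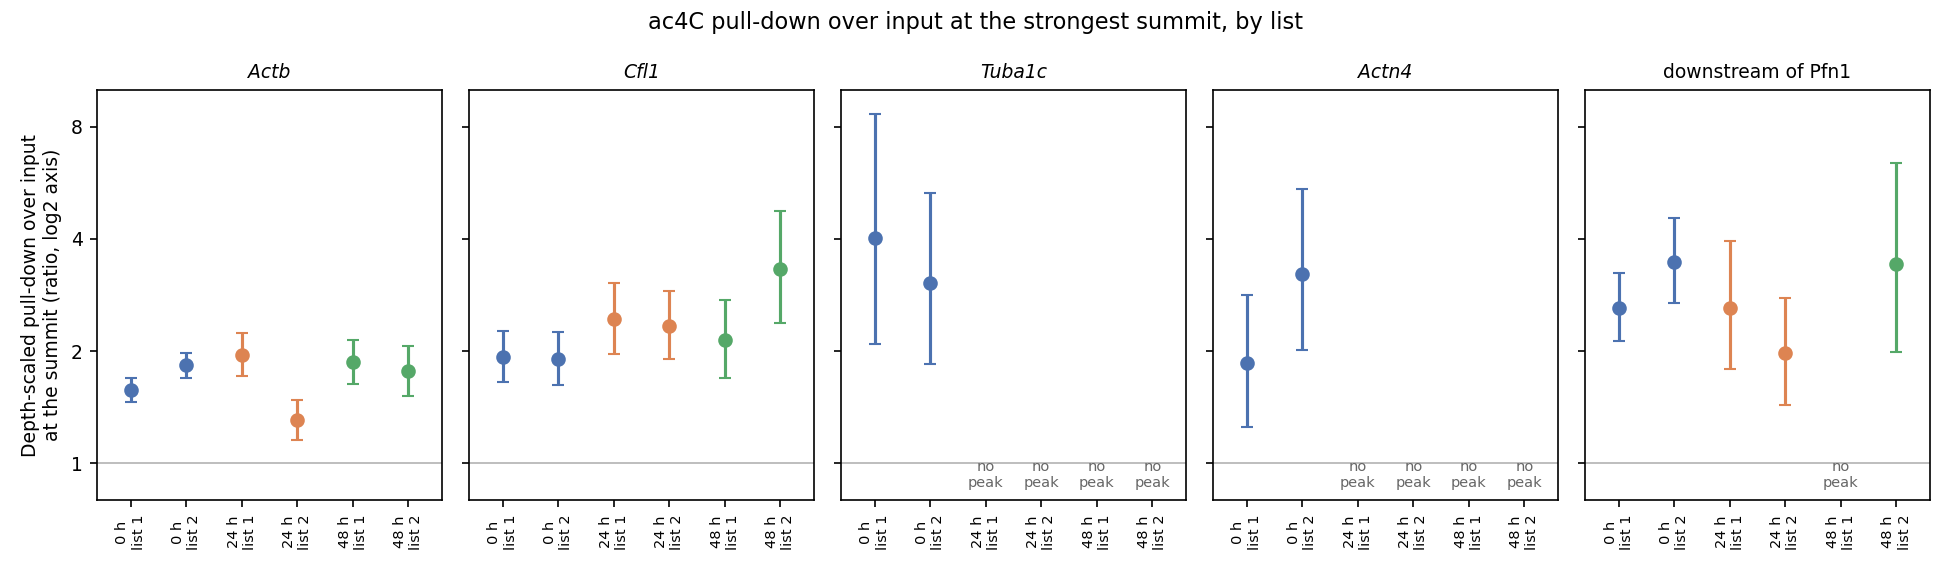
Points give the depth-scaled pull-down over input at the strongest summit of each list (log2 axis), bars the 95% exact counting interval, colours the time, and "no peak" a list without one. The Actb values of 1.31 to 1.96 do not order by time, those of Cfl1 are 1.91 to 1.93 at 0 h and 2.15 to 3.32 later, and Tuba1c and Actn4 have values at 0 h only.

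Tuba1c (ENSMUSG00000043091), 1 of the α-tubulin genes, lies on the plus strand of chromosome 15 (GRCm39, 98927772 to 98935991). Its peaks were chr15:98935682-98935950 in 0 h list 1 and chr15:98935707-98935939 in 0 h list 2, centred in the last exon and ending in the 3′ UTR, with summits 14 bases apart. The fold enrichment was 3.74 and 2.93 and the −log10 q 7.83 and 6.82. The summits held 92 and 117 pull-down fragments over an input coverage of 10 and 18, a ratio of 4.02 (95% exact interval 2.09 to 8.66) and 3.04 (1.84 to 5.31). These were strong peaks without being extreme, above 84.6% and 82.9% of their lists by p. The α-tubulin genes are near-identical in their coding sequence, and the labels do not say how reads matching several of them were handled, so the assignment of this peak to Tuba1c is uncertain where it reaches coding sequence.

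Actn4 (ENSMUSG00000054808), on chromosome 7, had its peaks in the 3′ UTR at chr7:28592715-28593004 in 0 h list 1 and chr7:28592701-28592943 in 0 h list 2. The same peaks overlap the 3′ UTR of Capn12 (ENSMUSG00000054083), a calpain protease gene that runs on the opposite strand, and peaks carry no strand, so the genes cannot be told apart. The lists disagreed on its strength. The fold was 1.83 in list 1 and 3.12 in list 2, and the −log10 q 1.03 and 9.78. The summits held 136 and 138 pull-down fragments over an input of 32 and 20, a ratio of 1.86 (95% exact interval 1.26 to 2.82) and 3.23 (2.01 to 5.45). At a q of 0.05 or less, or with all lists cut to the same 611 strongest peaks, Actn4 kept its peak in 0 h list 2 alone.

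The later lists, in which Tuba1c and Actn4 had no peak, were also shallower in the input. If the fragments and input coverage of each 0 h summit are scaled to the depth of each later list with the enrichment kept, Tuba1c would have passed the p of 0.005 in 8 of 8 cases, with a −log10 p of 5.95 to 10.6. It would still have passed had its coverage dropped to between 15% and 28% of that level, depending on the lists. Actn4 would also have passed in 8 of 8 cases (−log10 p of 2.78 to 13.5), but in the weakest case with no more than a drop to 84% of that level. This calculation, added after the data had been seen, holds the number of fragments fixed and takes no account of their sampling. It also rests on the 0 h values of genes described because they had peaks at that time, so a pass was likely beforehand. The 8 cases per gene reuse the same summits at the depths of the later lists and are not independent. The part of depth, and of any change in the transcripts themselves, in the missing later peaks was not tested.

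No list held a peak for the other 6 genes. The symbols of Actg1, Actn1, Tuba1b and Tubb5 stood in no column of the tables, and Tuba1a was named only as a neighbour 84232 or more bases from the Tuba1c peaks. Pfn1 had none by the rule either, but a peak lay just beyond it. Pfn1 (ENSMUSG00000018293) is on the minus strand of chromosome 11 (GRCm39, 70543438 to 70545434). In 5 of the 6 lists a peak outside all annotated genes lay 376 to 641 bases past its annotated 3′ end, within chr11:70542797-70543062, and 48 h list 1 had none. The RefSeq table, of another build, holds a longer Pfn1 gene, so the region may belong to a longer Pfn1 transcript that the authors' annotation does not include. This was not tested.

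The region beyond Pfn1 had a fold of 2.60 and 3.44 at 0 h, then 2.56 and 1.96 at 24 h, then 3.27 in 48 h list 2. Its −log10 q was 36.5 and 50.2 at 0 h, then 7.76 and 3.71 at 24 h, then 7.13 in 48 h list 2. The pull-down fragments numbered 629 and 505 at 0 h, then 266 and 270 at 24 h, then 185 in 48 h list 2, over an input of 105 and 68, 30 and 45, and 14. By p it ranked 17 and 10 in the 0 h lists, against 60 to 117 in the later lists that held it. Of 223 regions outside annotated genes, 8 were found in 5 or more lists.

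**Figure D4:**
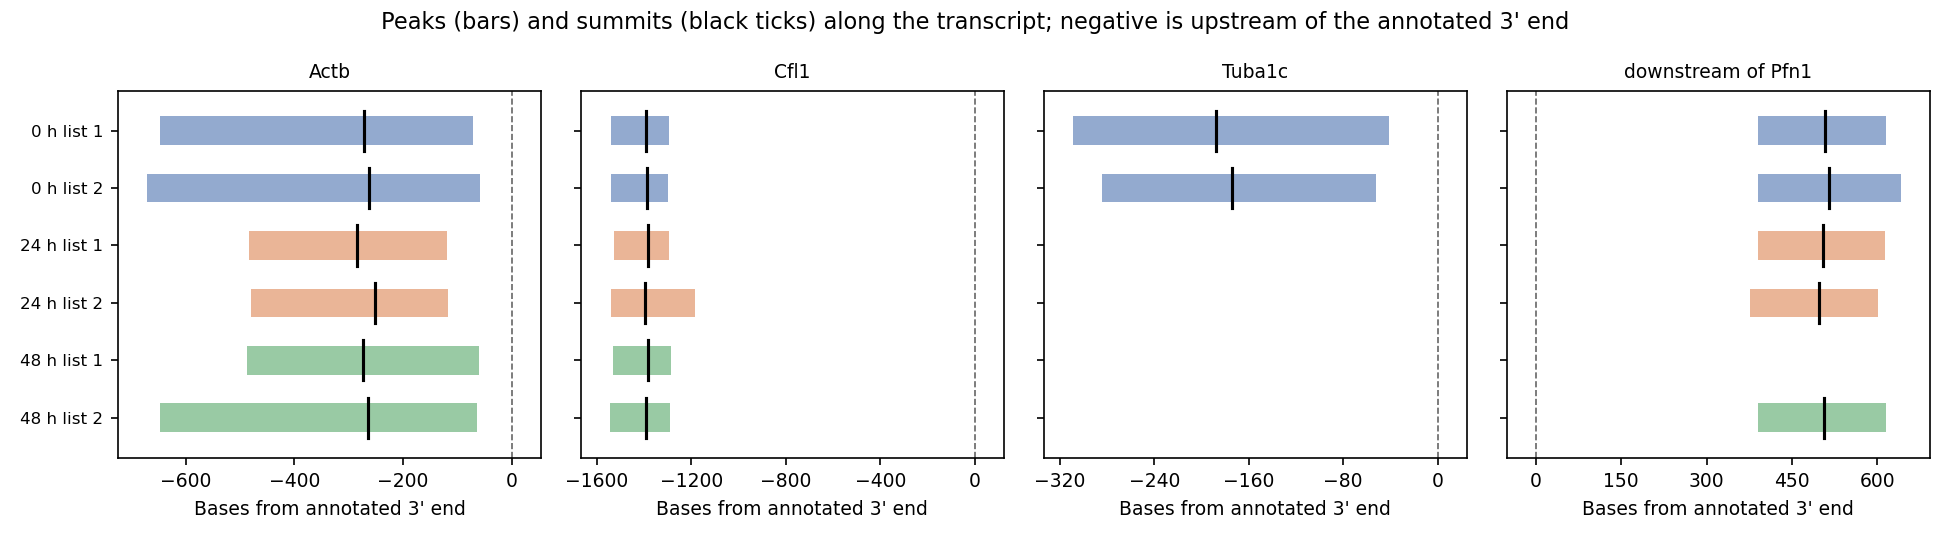
Bars are peaks and black ticks their summits, 1 row per list from 0 h at the top to 48 h at the bottom, in bases from the annotated 3′ end of the gene (dashed line), negative upstream of it. The summits line up within 33 bases for Actb, 16 for Cfl1 and 14 for Tuba1c, and the peaks beyond Pfn1 start 376 to 391 bases downstream of its end.

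Of the 16 peaks, 14 were centred in a 3′ UTR and 2, both of Tuba1c, in a last exon. None was centred in a 5′ UTR, an inner exon or an intron. Of all peaks, 37.8% to 59.4% of a list were centred in a 3′ UTR. The 16 peaks come from 4 regions and are not independent, so the share is a description.

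The genes most like each of the 4 were looked up among protein-coding genes with a peak in exactly the same lists, by the mean absolute difference of the percentile of −log10 p over those lists. Actb and Cfl1 shared their 6 lists with 56 other genes. Among the closest to Actb were Arf3, a small GTPase of the Golgi, at 4.89 percentile points, and Kpna4, a nuclear import receptor, at 5.07. Closest to Cfl1 were Rab7, the GTPase of late endosomes, at 1.72, the kinase gene Gsk3b at 2.03 and Ifrd1 at 2.101. Tuba1c and Actn4 shared their 2 lists with 99 other genes. Closest to Tuba1c were Srsf3, a splicing factor, at 0.594, Cyb5r1 at 2.05 and Rhob, a small GTPase that acts on actin, at 2.29. Actn4 was at 0 from Capn12, which has the same peak, and at 7.83 from Tet3 and 11.4 from Yeats4.

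The wider cytoskeleton was described from 247 further genes in 14 lists by role. At least 1 peak was found for 69 of them (27.9%), beside the 8.14% of protein-coding genes above. These genes were chosen with earlier results of these data known, so the shares are set side by side as description only. The 8.14% counts all 21896 protein-coding genes, whether or not macrophages express them. How far the share of 27.9% goes with transcript level was not tested. With only peaks at a q of 0.05 or less counted, 36 of the genes had a peak, and no share of all genes at that q is given here. The counts below use every listed peak, whatever its q. In the 6 lists the number with a peak was 34 and 33 at 0 h, then 19 and 18 at 24 h, then 22 and 22 at 48 h. Set over every protein-coding gene found in the same list, that was 4.13% and 4.67% at 0 h, then 3.599% and 3.81% at 24 h, then 4.27% and 4.75% at 48 h. The shares at 48 h lay within or just above those at 0 h, and those at 24 h below them. Peaks were present in both 0 h lists for 17 of the 247 genes, of which 4 had one in all 6 lists and 4 (23.5%) had none later, beside 27.2% of all such protein-coding genes. With 1 of the 0 h lists left out, so that 1 list was enough, the count with none later was 12 without list 1 and 14 without list 2.

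Peaks were missing from the lists of other actins and other tubulins. None of 9 actin and actin-related genes, with Actr2 and Actr3 counted elsewhere, and none of 16 tubulin genes had a peak. Among 20 genes of monomer binding and filament turnover, the class of Cfl1 and Pfn1, 5 had a peak. Tmsb4x, whose product thymosin β4 holds actin monomers in reserve, had a 3′ UTR peak in 4 lists, where the fold was 1.82 and −log10 q 54.5 in 0 h list 1 (2125 fragments over an input of 511). Like Actb, it combined high coverage with a low fold. The cofilin relative Cfl2 had a peak in 2 lists and Twf1, a twinfilin, in 1. These were weak, with a −log10 q of at most 0.0981 at the strongest peak of each gene.

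Of 25 genes of the Arp2/3 complex, which starts branched filaments, and its activators, 8 had a peak. Actr2 and Actr3, which encode the actin-like core of that complex, had one in all 6 lists. For Actr3 peaks of 1 region recurred in all 6, while no region of Actr2 had a peak in more than 5. In 0 h list 1 the strongest of Actr3 had a fold of 2.30 with 523 fragments, and that of Actr2 a fold of 1.95 with 270 fragments, both in the 3′ UTR. The subunit gene Arpc5 followed with 3 lists. Of 13 formin and elongation genes 3 had a peak, led by Vasp, which extends filaments at the cell edge, in 4 lists and with a fold of 5.33 in 0 h list 1. Of 11 capping and severing genes 2 had one, Capza2 and Eps8, in 1 list each, and neither peak passed a q of 0.05.

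Of 29 bundling and cross-linking genes, the class of the α-actinins, 10 had a peak. Marcks, a membrane-bound actin cross-linker of macrophages, had a 3′ UTR peak in all 6 lists, with a fold of 3.28 in 0 h list 2, and Tpm1, a tropomyosin, had peaks in 4 lists. Of 20 genes grouped as myosins, with the myosin phosphatase gene Ppp1r12a among them, 6 had a peak. Myh9, the heavy chain of non-muscle myosin, had peaks in all 6 lists and in 6 separate regions, the strongest in the 3′ UTR with a fold of 4.78 in 48 h list 2. Myo5a, a cargo-carrying myosin, had peaks in 5 lists, with neither of its 2 regions in more than 3. Myl12b, a myosin light chain gene, was the only 1 of the 247 to appear in both lists of a later time without a peak at 0 h.

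Of 18 genes linking actin to the membrane and to adhesions 7 had a peak, led by the integrin gene Itgb1 in 5 lists, in the 3′ UTR with a fold of 3.57 in 0 h list 2. The genes whose peaks stood in the 2 lists of 0 h and nowhere later were Rhob, Ppp1r12a, a subunit of myosin phosphatase, Myo10, a filopodial myosin, and Macf1, which links microtubules to actin. The other 3 besides Rhob are named because of that small count, after their values were seen.

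On the microtubule side, 11 of 28 genes of microtubule-associated proteins and motors had a peak. The kinesin gene Kif5b led with 5 lists, followed by Clasp1 in 3 and the dynein heavy chain Dync1h1 in 2. The strongest Kif5b peak, in 48 h list 2, had a −log10 q of only 0.493, beside 1.88 for Clasp1 and 5.83 for Dync1h1, both in 0 h list 2. Of 19 genes that fold actin and tubulin, 7 had a peak: Cct6a, a subunit of the chaperonin that folds both proteins, in 5 lists, and Pfdn5 and Cct2 in 3 each. Of 9 intermediate filament genes 3 had a peak in 1 list each (Des, Lmnb1 and Plec), with a −log10 q of 2.01, 0.873 and 0.844. None of the 3 genes of the SRF and MRTF pathway, which switches on actin genes when free actin monomer is scarce, had a peak.

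**Figure D5:**
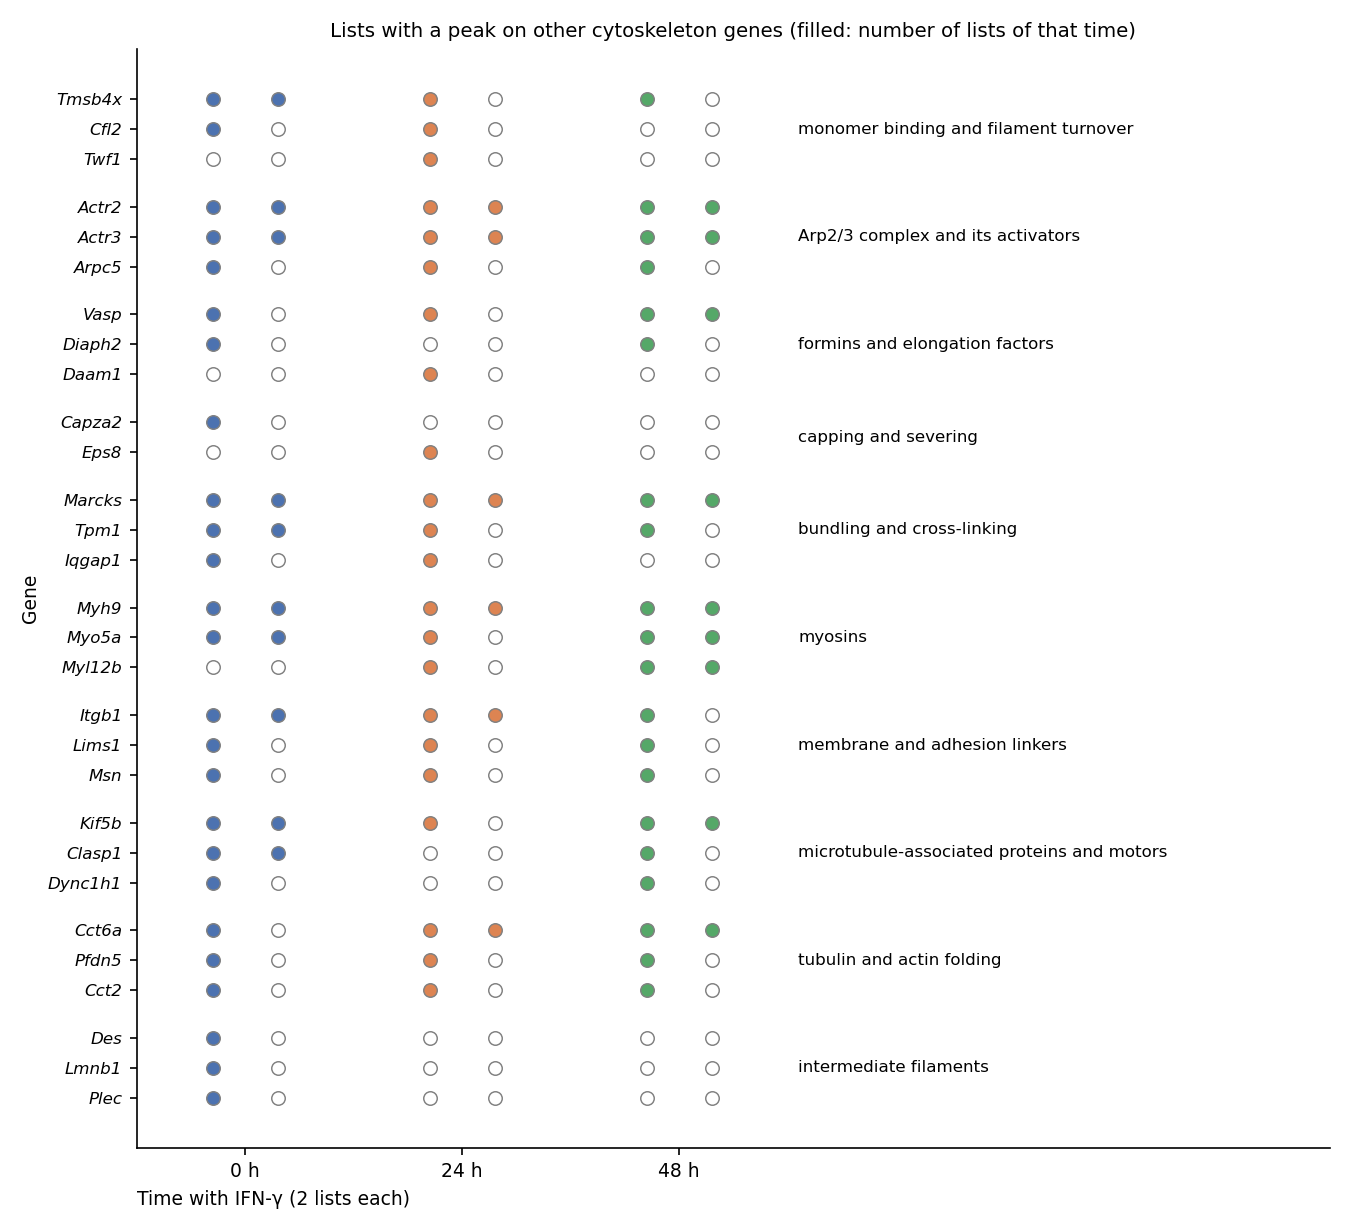
Rows are the up to 3 genes with a peak in most lists for each role shown, grouped by role, and each time (0, 24 and 48 h from left to right) has 2 circles, filled for the number of its lists with a peak. The 4 genes filled throughout are Actr2, Actr3, Marcks and Myh9. Circles count peaks anywhere on a gene, which need not be the same region.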

How the data were processed

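Peak lists from the ac4C pull-down were analysed for 3 times, 2 lists each; the 6 total RNA samples were not analysed here. BWA 0.7.12, MACS2 2.1.0 and GRCm39 are named in the submitters' processing notes, with roles and settings not given in the sources used here. Reads across splice junctions may be missing or misplaced, since BWA is not splice-aware. The deposited fold enrichment is the authors' ratio of summit signal over background, and the authors' p and q are deposited as −log10, per the file headers; peaks are per list, not pooled over a time.

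Fold and p at every summit (100% in each list) fitted, to 0.005 on the −log10 p scale, whole pull-down fragments times 1 factor per list over an input coverage; 57.4% to 69.4% of these inputs came out whole (within 0.002 fragments plus 2e-05 of the value). For Actb, Cfl1 and Actn4 a few summits allowed other solutions, whose input differed by at most 4.58%. The lowest input of a list was taken as its background, and that value divided by the list's factor as the background of the pull-down. Peaks of all lists sharing 1 base were merged into regions, and a peak's place is that annotated at its centre. Differences were tested with two-sided exact permutation tests and an exact Jonckheere-Terpstra test over 90 arrangements, whose smallest p are 0.33 (2 lists against 2), 0.067 (2 against 4) and 0.022 (trend), with Benjamini-Hochberg adjustment over all genes or regions. Symbols were matched to the RefSeq gene table (GRCm38.p6, not the files' build), used for names, gene types and strands (94.4% of 2095 matched). The code was tested on simulated data.

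The 10 genes and all gene lists were chosen with earlier results of these data known. Named further genes were, per role, the 3 with a peak in most lists (ties by mean percentile of −log10 p), and per gene with a peak the 3 most alike; a few of these are not reported here. Alternatives were a q of 0.05 or 1e-05, a fold of 2 or 4, equal list length, matched input coverage, peak centre or exon overlap as the rule, region merging at 50% overlap or a gap of 100 bases, another precedence of annotations, and leaving out each list. Python 3.11.15, numpy 2.4.6, pandas 2.3.3, scipy 1.17.1 and matplotlib 3.10.9 were used.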

Additional observations from a re-analysis of the deposited data

Results flagged for a closer look

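The region beyond the annotated 3′ end of Pfn1 stands out because its peaks lie outside the annotated genes and so outside the counts per gene, yet it was found in 5 of the 6 lists. Its coverage over the list background was 129 and 91.1 in the input and 336 and 317 in the pull-down at 0 h, with the later lists that held it at 38.5 to 68.1 in the input and 130 to 135 in the pull-down. Whether the fragments belong to Pfn1 transcripts was not tested.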

How the results depend on the processing

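At a q of 0.05 or less, 1 gene instead of 2 (Tuba1c) had a peak in both 0 h lists and no later list, and 36 instead of 69 other cytoskeleton genes had a peak. At a q of 1e-05 or less, 1 gene (Cfl1) had a peak in every list, 1 (Tuba1c) at 0 h only, and 18 other genes had a peak. At a fold of 2 or more, a mean of 1.5 genes had a peak at 0 h, 1 at 24 h and 1 at 48 h, 0 in every list, 1 in the 0 h lists only, and 5 peaks stayed in 3′ UTRs; Actb had no peak and Cfl1 only its 4 later ones. At a fold of 4 or more, the counts of genes at 0, 24 and 48 h, in every list and in the 0 h lists only, and of regions and 3′ UTR peaks, were all 0, and the other genes numbered 22, with 2 in the 0 h lists only. At equal list length 1 gene and 2 other genes were in the 0 h lists only. Leaving out a list in turn gave 4 to 14 other genes in the 0 h lists only (12 without 0 h list 1, 14 without 0 h list 2). Matched input coverage and the other rules for assigning or merging peaks moved none of these counts by over 1.5 times. The mean difference in covered bases kept its direction for Actb and Cfl1 wherever a value could be had, 12 and 13 settings. For Cfl1 it dropped to 3.67 bases without 24 h list 2 and was 272.75 at a fold of 2 or more, where the 0 h lists hold no Cfl1 peak and the direction is fixed; for Actb it was -250.25 at a q of 1e-05 or less, where 24 h list 2 holds no Actb peak. None was possible for Actb at a fold of 2 or 4, nor for Cfl1 at a fold of 4. Under the alternatives added after seeing the data (another scaling, each list left out), the later level over 0 h stayed within 0.42 and 0.46 for Actb input, 0.42 and 0.48 for Actb pull-down, 0.56 and 0.65 for Cfl1 input, and 0.76 and 0.78 for Cfl1 pull-down. Pull-down over input crossed 1 for Actb (0.94 to 1.10) and lay between 1.20 and 1.40 for Cfl1. No paired analysis was possible because the lists, numbered 1 and 2 at each time, do not name their sample, and the titles number the samples 1 to 12 without a shared number. Input depth was lowest at 48 h, down to 44.5% of the deepest list, while pull-down depth was highest at 24 h.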
